A study of Sus scrofa domesticus with 12 samples.

Results

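Whether an ECM left a trace in the transcriptome of the healing muscle was addressed by setting ECM-repaired limbs against VML-injured limbs that received no ECM. The 6 limbs labelled as ECM-repaired formed one side. The other side was the 4 injured limbs without an ECM, of which 2 were non-repaired and 2 were filled with hyaluronic acid hydrogel (Hya-repaired). These 10 libraries were chosen by their labels alone, from 12 in the series. Volumetric muscle loss (VML) is the surgical removal of a block of skeletal muscle too large to regrow, made here in the peroneus tertius (PT), a dorsiflexor of the pig hindlimb. All animals were female Yorkshire Cross pigs and tissue was taken 12 weeks after surgery. The ECMs are decellularized sheets of porcine small intestinal submucosa (SIS) or urinary bladder matrix (UBM), sutured into the defect at the time of injury. Hya, a gel placed in the defect, served as a biomaterial negative control. The 2 sham-operated limbs had no VML injury, were not in the comparison and are quoted as a background level.

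Each library came from 1 limb, and the 12 limbs came from 11 pigs. Pig 017 supplied 1 limb of each kind without ECM, so the side without ECM holds 3 pigs, and no pig gave a limb to both sides. The labels call every ECM-repaired limb SIS while the description of the study divides them between SIS and UBM, so they were kept as 1 group. Pigs are given below by number, which are 013, 014, 018, 021, 022 and 024 for ECM-repaired, 017 and 023 for non-repaired, and 016 and 017 for Hya-repaired limbs. Both hindlimbs of a pig were operated on, and the limbs not sequenced are not analysed here. After surgery the SIS-repaired limbs swelled more than other limbs, and most of them had wound complications, which were treated.

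Skeletal muscle is built of multinucleated fibers whose sarcomeres hold actin, myosin and troponin isoforms specific to fast or slow contraction. After a loss that the satellite cells cannot refill, fibroblasts and fibro-adipogenic progenitors lay down collagen, and macrophages and lymphocytes can persist in the scar. An implanted ECM is degraded by macrophages and is meant to draw in cells that rebuild the tissue. Whole-tissue RNA mixes all of these cells, so a sample with more scar carries proportionally less message from the fibers.

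ACTA1, the main sarcomeric actin of adult fibers, was used to measure how much muscle a sample held. In ECM-repaired limbs ACTA1 ranged from 3141 TPM (a length-corrected share of all transcripts) in pig 014 through a median of 10260 to 14970 in pig 024. Without ECM the values were 2743 for pig 016 (Hya-repaired), 10570 and 15690 for pigs 017 and 023 (non-repaired) and 21520 for pig 017 (Hya-repaired). The sides overlapped almost completely, and the limbs holding the least and the most ACTA1 of all injured limbs were both Hya-repaired. The means were 9203 ± 4416 TPM (SD, n = 6) with ECM and 12630 ± 7965 (SD, n = 4) without, against 50130 and 45630 in the sham-operated limbs. On the log2 scale, where a value of 1 is a 2-fold difference, ECM-repaired limbs were lower by 0.30. A two-sided exact permutation test over all 210 splits of the limbs gave p = 0.648, with 0.0095 the smallest value these splits can give. Leaving out the Hya-repaired limb of pig 016 moved the difference to -0.92 (exact p = 0.119), and leaving out the Hya-repaired limb of pig 017 turned its sign, to 0.08 (exact p = 0.881). These tests took limbs as units, although pig 017 gave 2. With its limbs averaged the difference was -0.096 (exact p = 0.857 over 84 splits, smallest possible 0.0238). Fewer fibers and less ACTA1 message per fiber cannot be told apart in whole tissue.

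**Figure D1:**
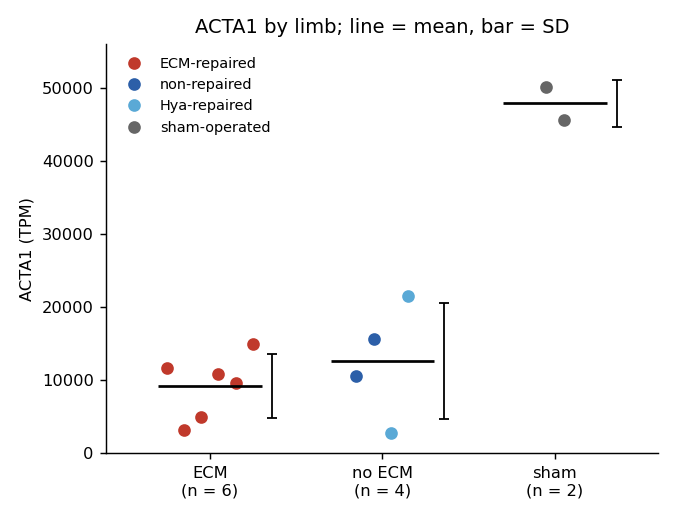
ACTA1 level (TPM, linear axis from 0) in each limb, with ECM-repaired, non-repaired, Hya-repaired and sham-operated limbs as points in their own colors, the mean as a line and the SD as a bar. The injured limbs spread from 2743 to 21520 TPM on the side without ECM and from 3141 to 14970 with ECM, all below both sham-operated limbs.

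Of 8212 genes that reached 1 TPM in every limb of a side, none differed between the sides at an adjusted p under 0.05 (limma, 0.0% of genes, lowest adjusted p = 0.9997). An unadjusted p under 0.05 was found for 110 genes (1.34%), of which 81 were higher (0.986%) and 29 lower (0.353%) with ECM. With log2 ACTA1 added as a term, 0 of 8211 genes passed the adjusted threshold (lowest adjusted p = 0.9999) and 184 had an unadjusted p under 0.05 (2.24%), 92 in each direction (1.12%). There were 94 genes in both sets. The pairs of limbs gave the same picture, with a median squared correlation over genes of 0.918 for the 24 pairs across sides, 0.914 for the 15 pairs of ECM-repaired limbs and 0.919 for the 6 pairs without ECM. Genes are not independent replicates, and these values are a description.

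The size of the differences was small against their precision. The median gene differed by 0.15 in either direction on the log2 scale, and its 95% confidence interval reached 0.55 to each side of the estimate, a distance called the margin from here on. For 6522 genes (79.4%) the whole interval lay inside a 2-fold change either way, and 72 genes (0.877%) had an estimate of 2-fold or more, 42 of them lower (0.511%) and 30 higher with ECM (0.365%). The ACTA1 term narrowed the interval of 5062 genes (61.6%) and took the median margin from 0.55 to 0.52 and the median residual SD from 0.40 to 0.37. With the term, the interval lay inside a 2-fold change for 6991 genes (85.1%) and 44 genes (0.536%) had an estimate of 2-fold or more. Within sides, ACTA1 carried 13.8% of the variance of the median gene. A term unrelated to a gene also takes up some of this variance when limbs are few. That chance share was not worked out, so low shares here and below are not evidence of a link to muscle content. The slope on ACTA1 was positive at an adjusted p under 0.05 for 491 genes (5.98%) and negative for 121 (1.47%). These intervals are per gene and are not widened for the number of genes. Where a gene is given below as being at a value, that value is its log2 difference, ECM-repaired minus injured without ECM, with its 95% interval.

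**Figure D2:**
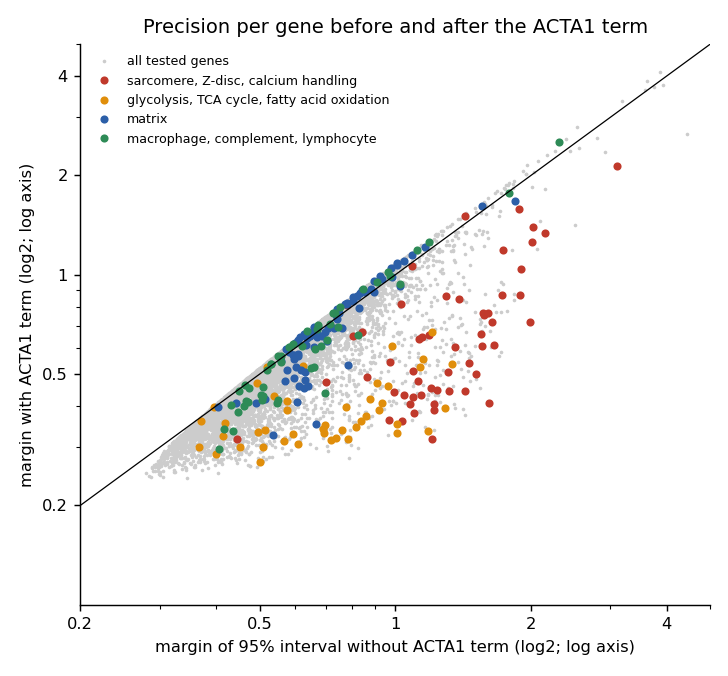
Margin of the 95% interval of each gene's log2 difference without (x axis) and with (y axis) the ACTA1 term, both on log axes. All tested genes are in grey. In color are genes of the sarcomere, Z-disc and calcium handling, and of glycolysis, the TCA cycle and fatty acid oxidation. Genes of the matrix and of macrophages, complement and lymphocytes are also in color. Oxidative phosphorylation genes are not colored. Points below the diagonal are genes whose interval narrowed. Most sarcomere genes and most of the colored energy genes lie well below it, while most matrix genes lie close to it.

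Fast-twitch fiber genes, whose products give the sarcomere its rapid contraction, gained much precision from the ACTA1 term. All 14 tested members of the list were lower in ECM-repaired limbs, with a median log2 difference of -0.58 against -0.03 over all genes, but the median margin was 1.23 and 0 of 14 had an unadjusted p under 0.05. ACTA1 carried 87.4% of the within-side variance of the median member. With the term, the median difference of the remaining 13 was -0.34 and the median margin 0.48, and 8 of 13 intervals lay inside a 2-fold change, compared with 0 of 14 before. The size of this difference depended on how muscle content was measured. The median was 0.07 with the mean of the glycolysis genes as the term, and -0.70 with DES, the intermediate filament desmin. With the mean of the fast-twitch genes themselves it was 0.12, but that term pulls these same genes toward 0 by construction. In the fit without the term, the size of the difference depended on which limbs were left out. Leaving out 1 limb, the median of that fit ran from -0.99 to -0.22, below 0 throughout. Without both limbs of pig 017 it was -0.0011, with 7 of 14 members higher and 7 lower. The side without ECM then held 1 non-repaired limb and the Hya-repaired limb with the least ACTA1 of all injured limbs.

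TNNT3, fast troponin T, ranged from 406.9 TPM through a median of 1585 to 2213 in ECM-repaired limbs. Without ECM the levels were 687.1 for pig 016 (Hya-repaired), 2400 and 2617 for pigs 017 and 023 (non-repaired) and 3970 for pig 017 (Hya-repaired). Sorted by ACTA1, the limbs of both sides ran along nearly the same line, with ECM-repaired limbs on its lower edge. Its log2 difference was -0.80 (95% CI -2.02 to 0.42), and with the ACTA1 term -0.51 (95% CI -0.90 to -0.12, unadjusted p = 0.0143 by limma), the term carrying 94.0% of its within-side variance. Of the other members, MYBPC2, fast myosin-binding protein C, stood at -0.79 (95% CI -1.51 to -0.08) and PVALB, the calcium buffer parvalbumin, at -0.97 (95% CI -1.83 to -0.11) with the term. These 3 of 13 had an unadjusted p under 0.05 in the lower direction, where 1.12% of all genes did. MYH4, the fastest myosin heavy chain, was estimated lowest of the list at -1.76 (95% CI -3.64 to 0.12), or -1.48 with the term (95% CI -3.05 to 0.10). TNNI2, fast troponin I, was at -0.43 (95% CI -1.39 to 0.54), or -0.21 (95% CI -0.57 to 0.15) with the term, an interval that leaves less than a 2-fold difference either way.

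Slow-twitch genes did not move as a block. Of 11 tested members 9 were lower and 2 higher with ECM, with a median of -0.29 and a margin of 1.51, and with the ACTA1 term 6 were higher and 5 lower, with a median of 0.01 and a margin of 0.66. MYH7, the slow myosin heavy chain, had a slope of 1.55 ± 0.17 (SE) on ACTA1 and differed by -0.27 with the term (95% CI -0.99 to 0.45). With the term, 2 of 11 members had an unadjusted p under 0.05 in the higher direction and 0 in the lower, where 1.12% of all genes did in each. These 2 were CSRP3 and MYOZ2. CSRP3, the stretch-responsive muscle LIM protein, was 153.4, 490.2 and 1024 TPM at the lowest, median and highest ECM-repaired limb. Without ECM it was 111.7 and 269.6 in the Hya-repaired limbs of pigs 016 and 017 and 98.21 and 175.1 in the non-repaired limbs of pigs 017 and 023. Of the 6 ECM-repaired limbs 4 lay above every limb without ECM, and pig 013 with 1024 TPM was the highest. ECM-repaired limbs differed on the log2 scale by 1.45 (95% CI 0.37 to 2.54, unadjusted p = 0.0129 by limma), or 1.56 (95% CI 0.50 to 2.62) with the term, and sham-operated limbs held 171 and 302.4 TPM.

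MYOZ2, a calsarcin that anchors calcineurin at the Z-disc, had a much narrower interval with the term. Its level was 68.71 to 290.9 TPM with ECM (median 187.8) and 34.58, 92.78, 119.5 and 272.8 without, so the sides overlapped over most of their range. At a given ACTA1 level, however, each ECM-repaired limb lay above the neighboring limbs without ECM. The log2 difference was 0.70 (95% CI -0.39 to 1.79) without the term and 0.94 (95% CI 0.43 to 1.45, unadjusted p = 0.0020 by limma) with it, as the margin fell from 1.09 to 0.51. The adjusted p of MYOZ2 with the term was 0.9999.

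**Figure D3:**
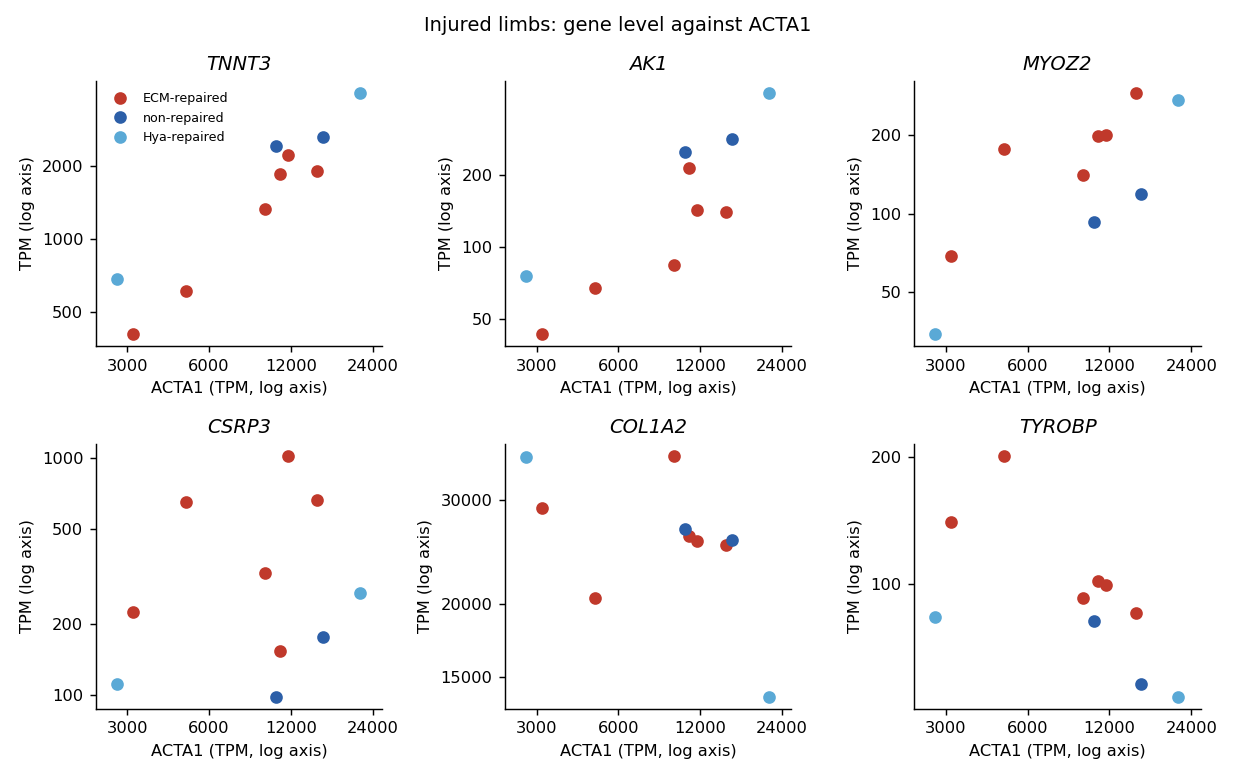
Level of TNNT3, AK1, MYOZ2, CSRP3, COL1A2 and TYROBP (TPM, log axis) against ACTA1 (TPM, log axis) in the 10 injured limbs, with ECM-repaired, non-repaired and Hya-repaired limbs in their own colors. TNNT3, AK1 and MYOZ2 climb with ACTA1, which carries 94.0%, 87.5% and 84.1% of their within-side variance, while for CSRP3 it carries 16.4%.

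Most genes of calcium release and of the Z-disc were also lower with ECM before and after the ACTA1 term. Of 10 excitation and calcium-handling genes 8 were lower with ECM, with a median of -0.59 (margin 1.20) that became -0.34 (margin 0.63) with the ACTA1 term. CASQ2, the calsequestrin of slow and cardiac muscle that stores calcium in the sarcoplasmic reticulum, went the other way. It was 6.921 to 30.09 TPM in ECM-repaired limbs (median 13.88), and 5.383, 6.562, 7.602 and 8.233 without ECM, and 5 of 6 ECM-repaired limbs lay above every limb on the other side. This came to a log2 difference of 1.04 (95% CI 0.26 to 1.82, unadjusted p = 0.0132 by limma), and 1.08 (95% CI 0.27 to 1.89) with the term, and ACTA1 carried 6.47% of its within-side variance. Among the 20 Z-disc and sarcolemma genes 18 were lower, with a median of -0.47 (margin 1.25), or -0.27 (margin 0.58) with the term, and 0 had an unadjusted p under 0.05 in either fit by limma. With the fast-twitch mean as the muscle term the medians turned to 0.21 for the Z-disc list and 0.10 for the calcium list. Leaving out 1 limb, the medians with the ACTA1 term ran from -0.38 to 0.19 for the Z-disc list. For the calcium list they ran from -0.38 to 0.08. HFE2, the muscle co-receptor hemojuvelin, a member of none of these lists, stood with the ACTA1 term at -0.88 (95% CI -1.36 to -0.40), with 93.6% of its within-side variance on ACTA1.

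The enzymes that burn sugar and fat to power contraction were the most tightly measured of the muscle lists once ACTA1 was in the fit. Of 18 glycolysis and glycogen genes 17 were lower with ECM, with a median of -0.44 (margin 0.92), and with the ACTA1 term the median was -0.25 (margin 0.38) and 15 of 18 intervals lay inside a 2-fold change, up from 5. For 27 genes of the TCA cycle and fatty acid oxidation the median was -0.37 (margin 0.62), then -0.24 (margin 0.35), and 26 of 27 intervals lay inside a 2-fold change, up from 13. Oxidative phosphorylation, with 38 genes, had a median of -0.20 (margin 0.62), then -0.12 (margin 0.47), with 36 of 38 inside. With the fast-twitch mean as the muscle term these medians were 0.03, -0.04 and -0.04, so the shift that remained with ACTA1 was smaller with this term. In the fit without a muscle term, the median of oxidative phosphorylation was 0.24 after both limbs of pig 017 were left out.

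With the ACTA1 term, 3 of 27 TCA cycle and fatty acid oxidation genes had an unadjusted p under 0.05 in the lower direction and 1 in the higher, and 2 of 18 glycolysis and glycogen genes in the lower and 0 in the higher, where 1.12% of all genes did in each direction. The gene that was higher was ECHS1, an enoyl-CoA hydratase of fatty acid oxidation, at 174.6 to 224.5 TPM with ECM and 134.7, 151.7, 153.3 and 207.5 without, or 0.32 with the term (95% CI 0.02 to 0.62). The genes that follow were named for the size of their difference or its p and do not stand for a class. AK1, the adenylate kinase that recovers ATP from ADP, was 43.37 to 214.4 TPM with ECM (median 112.1). Without ECM the levels were 76.1 for pig 016 (Hya-repaired), 249.8 and 282.9 for the non-repaired limbs and 439.8 for pig 017 (Hya-repaired). The sides overlapped through pig 016 alone. The log2 difference was -1.12 (95% CI -2.22 to -0.02), and -0.88 with the term (95% CI -1.34 to -0.41, unadjusted p = 0.0017 by limma), the margin going from 1.10 to 0.47. STBD1, which tethers glycogen to membranes, was at -0.67 (95% CI -1.04 to -0.30) with the term. CPT1B, which loads fatty acids for entry to mitochondria, was at -0.83 (95% CI -1.50 to -0.16), and FBP2, the muscle fructose bisphosphatase, at -0.83 (95% CI -1.53 to -0.14). SLC16A3, the lactate exporter MCT4, was at -0.59 (95% CI -0.96 to -0.21), FH, fumarase, at -0.47 (95% CI -0.81 to -0.13), and PHKG1, the catalytic subunit of phosphorylase kinase, at -0.57 (95% CI -1.04 to -0.10).

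The main scar collagens differed by less than the spread between limbs. COL1A2, a chain of type I collagen, was 20470, 25840 and 35730 TPM at the lowest, median and highest ECM-repaired limb and 13910, 25670, 26850 and 35530 without ECM, against 279.6 and 483.2 in sham-operated limbs. The ECM-repaired limbs lay inside the range of the limbs without ECM, except for pig 022 with the highest value. Its log2 difference was 0.14 (95% CI -0.45 to 0.74), and 0.08 (95% CI -0.40 to 0.57) with the ACTA1 term. COL3A1, type III collagen, was at 0.10 (95% CI -0.52 to 0.71), then 0.02 (95% CI -0.44 to 0.48). For these collagens a 2-fold difference lies outside the interval, and without both limbs of pig 017 the estimates were -0.18 for COL1A2 and -0.14 for COL3A1. COL1A1 is listed at 0 in all 12 limbs and gives no value. Across 9 fibrillar collagens the median was 0.11 (margin 0.83), and 0.03 (margin 0.83) with the term, which carried 9.14% of the within-side variance of the median member.

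Other matrix classes were centered close to 0 as well. Proteoglycans (14 genes) had a median of 0.05 (margin 0.63), matricellular and elastic fiber genes (22) 0.12 (margin 0.74) and crosslinking and turnover genes (24) 0.10 (margin 0.64). With the term the medians were 0.03, 0.05 and 0.03. LOXL1, a lysyl oxidase that crosslinks elastin and collagen, lay well above the median of its list. Its level was 24.66, 35.29 and 41.65 TPM at the lowest, median and highest ECM-repaired limb, and 15.66, 18.8, 21.68 and 28.7 without ECM, where the highest was the Hya-repaired limb of pig 016. ECM-repaired limbs lay above all limbs without ECM in 5 of 6 cases. Its estimate on the log2 scale was 0.71 (95% CI 0.27 to 1.15, unadjusted p = 0.0042 by limma), and 0.67 (95% CI 0.26 to 1.08) with the term. TNC, the matricellular protein tenascin C, was at 0.81 (95% CI 0.07 to 1.56), and COL11A1, a minor fibrillar collagen, at 0.75 (95% CI -0.09 to 1.60).

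Basement membrane genes leaned the other way. Of 8 tested members 7 were lower with ECM, with a median of -0.30 (margin 0.76), and -0.27 (margin 0.79) with the term. The median was 0.13 with the term after removal of Hya-repaired pig 016. COL15A1, a collagen of muscle and vessel basement membranes, was 27.91 to 79.39 TPM with ECM (median 55.19), and 63.74, 82.26, 86.42 and 99.67 without. All ECM-repaired limbs but pig 024 lay below every limb without ECM, and the sham-operated limbs at 51.98 and 58.97 lay inside the ECM-repaired range. The log2 difference was -0.72 (95% CI -1.29 to -0.15), and -0.64 (95% CI -1.12 to -0.16) with the term. COL4A1, of type IV collagen, was at -0.43 (95% CI -1.17 to 0.30).

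Signaling genes of fibrosis gave medians of 0.0040 over 21 TGF-beta genes (margin 0.67) and 0.16 over 16 Wnt genes (margin 0.74). SFRP2, a secreted Wnt modulator, was 888.1 to 1535 TPM with ECM (median 1112) and 497.9, 515.4, 934.1 and 1022 without, and both low values came from pig 017. Its log2 difference was 0.71 (95% CI 0.13 to 1.28), and 0.68 with the term (95% CI 0.12 to 1.23). WISP1, a matricellular Wnt target, was at 0.68 (95% CI 0.09 to 1.27). Among 13 fibro-adipogenic progenitor genes the median was 0.15 (margin 0.71), with PTN, the growth factor pleiotrophin, at 0.69 (95% CI -0.02 to 1.40).

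Macrophage genes were shifted in 1 direction, with a median below 2-fold. The 23 tested members, of 24 measured, were all higher with ECM, where 45.1% of all tested genes were, and the median log2 difference was 0.41 (margin 0.56). For 12 of 23 the whole interval lay inside a 2-fold change, where 79.4% of all genes did, and the largest estimate was 1.03. Of the 23, 22 passed the abundance filter on both sides. The mean log2 level of the list was 5.49 to 6.09 in ECM-repaired limbs, 5.52 and 4.60 in the Hya-repaired limbs of pigs 016 and 017, 5.52 and 5.40 in the non-repaired limbs of pigs 017 and 023, and 1.73 and 2.37 in sham-operated limbs. The limbs at both extremes, pig 018 with ECM and the Hya-repaired limb of pig 017, stood apart from the rest of their sides. With the ACTA1 term 20 of 23 were higher, with a median of 0.37 (margin 0.53). An unadjusted p under 0.05 was found for 2 of 23 without the term, where 0.986% of all genes had one in this direction, and for 3 of 23 with it, where 1.12% did. The count was 17 of 23 without the Hya-repaired limb of pig 017, with a median of 0.21, and 22 of 23 without the ECM-repaired limb of pig 018, with a median of 0.32. ACTA1 carried 32.9% of the within-side variance of the median member, and the median slope was -0.20, with 1 of 23 slopes below 0 at an adjusted p under 0.05.

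CD163, the hemoglobin scavenger receptor, was at 0.48 (95% CI -0.08 to 1.03), CD68, a lysosomal glycoprotein, at 0.45 (95% CI -0.06 to 0.96), and MRC1, the mannose receptor, at 0.55 (95% CI -0.05 to 1.14). CD14, the endotoxin co-receptor, was at 0.44 (95% CI 0.03 to 0.84), and at 0.37 (95% CI 0.08 to 0.67) with the ACTA1 term, which carried 75.8% of its within-side variance. TYROBP, the signaling adaptor of myeloid and NK receptors, did not overlap between the sides. It was 85.61, 100.6 and 201.2 TPM at the lowest, median and highest ECM-repaired limb and 54.14, 57.94, 81.8 and 83.75 without ECM, with sham-operated limbs at 3.679 and 7.455. The gap between the sides was narrow, and pig 018 was the highest. The fitted log2 difference came to 0.75 (95% CI 0.20 to 1.29, unadjusted p = 0.0112 by limma), and 0.66 (95% CI 0.25 to 1.07, unadjusted p = 0.0046) with the term. FCER1G, its partner adaptor, was at 0.54 (95% CI -0.01 to 1.09).

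Complement and chemokine genes leaned the same way. Of 19 complement genes 16 were higher, with a median of 0.24 (margin 0.62), among them C1QB, of the initiating complex, at 0.50 (95% CI 0.05 to 0.95) and CFP, properdin, at 0.63 (95% CI 0.16 to 1.09). Of 25 chemokine and cytokine genes 21 were higher, where 45.1% of all genes were, with a median of 0.40 (margin 0.77). An unadjusted p under 0.05 was found for 4 of 25, against 0.986% of all genes in this direction, and 1 of these 4, IL10, passed the abundance filter on the ECM side alone, where it is high. Without both limbs of pig 017, 14 of 28 were higher and the median was 0.07. CCL24, an eotaxin that attracts eosinophils, was 30.81, 61.33 and 71.99 TPM at the lowest, median and highest ECM-repaired limb, and 20.11, 23.01, 28.21 and 41.91 without ECM. The overlap came from pigs 013 and 022 on the ECM side and pig 023 on the other. The log2 difference was 0.96 (95% CI 0.35 to 1.58, unadjusted p = 0.0049 by limma), and 0.97 (95% CI 0.33 to 1.62) with the term. CCL26, a related eotaxin, was at 1.30 (95% CI 0.19 to 2.40), and at 1.49 (95% CI 0.65 to 2.33, unadjusted p = 0.0025) with the term. CCL14, a monocyte attractant, was at 0.59 (95% CI 0.06 to 1.12), and the level of IL10, an anti-inflammatory cytokine, was 1.492 to 7.313 TPM with ECM and 0.5072 to 2.447 without.

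Lymphocyte genes were scarce. Of the 26 measured T and NK genes, 8 reached the abundance filter, all on both sides, and all 8 were higher with ECM, where 45.1% of all genes were, with a median of 0.65 (margin 0.74), or 0.61 (margin 0.77) with the term. Without the filter 26 of 26 were higher, with a median of 0.42. The genes this adds were under 1 TPM in at least 1 limb of each side. The share of all genes that were higher without the filter is not given here, so this count has no background. NKG7, of cytotoxic granules, was 14.75, 16.29 and 28.37 TPM at the lowest, median and highest ECM-repaired limb and 7.596, 10.34, 12.85 and 14.29 without ECM. The sides did not overlap, though by less than 1 TPM, and the value of pig 018 stood far above the other 5. On the log2 scale the sides differed by 0.65 (95% CI 0.15 to 1.16, unadjusted p = 0.0158 by limma). CD3E, of the T cell receptor complex, ranged from 1.217 to 12.17 TPM with ECM and 1.25 to 2.344 without, at 0.79 (95% CI -0.17 to 1.75), and pig 018 was again the highest. CD4 was at 0.76 (95% CI 0.01 to 1.51) and GNLY, granulysin, at 0.65 (95% CI 0.07 to 1.23). Without pig 018 the median of the list was 0.45 and 1 of 8 had an unadjusted p under 0.05, compared with 3 of 8 in all limbs and 0.986% of all genes in this direction.

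The 4 tested B and plasma cell genes, of 12 measured, were all higher, with JCHAIN, the joining chain of secreted antibodies, at 1.20 (95% CI 0.07 to 2.33) and BANK1, a B cell scaffold that passed the filter on the ECM side alone, at 1.608 to 2.894 TPM with ECM and 0.814 to 1.61 without. MHC class II genes (8) had a median of 0.30 (margin 0.80), neutrophil and mast cell genes (7) 0.05 (margin 0.63), and interferon response genes (27) -0.02 (margin 0.65). CD52, a surface glycoprotein of lymphocytes and monocytes, was at 2.21 (95% CI 0.64 to 3.78), and both limbs of pig 017 held under 2 TPM and pig 018 held 120. RGS1, a regulator of G protein signaling in activated lymphocytes, was at 1.27 (95% CI 0.09 to 2.46).

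**Figure D4:**
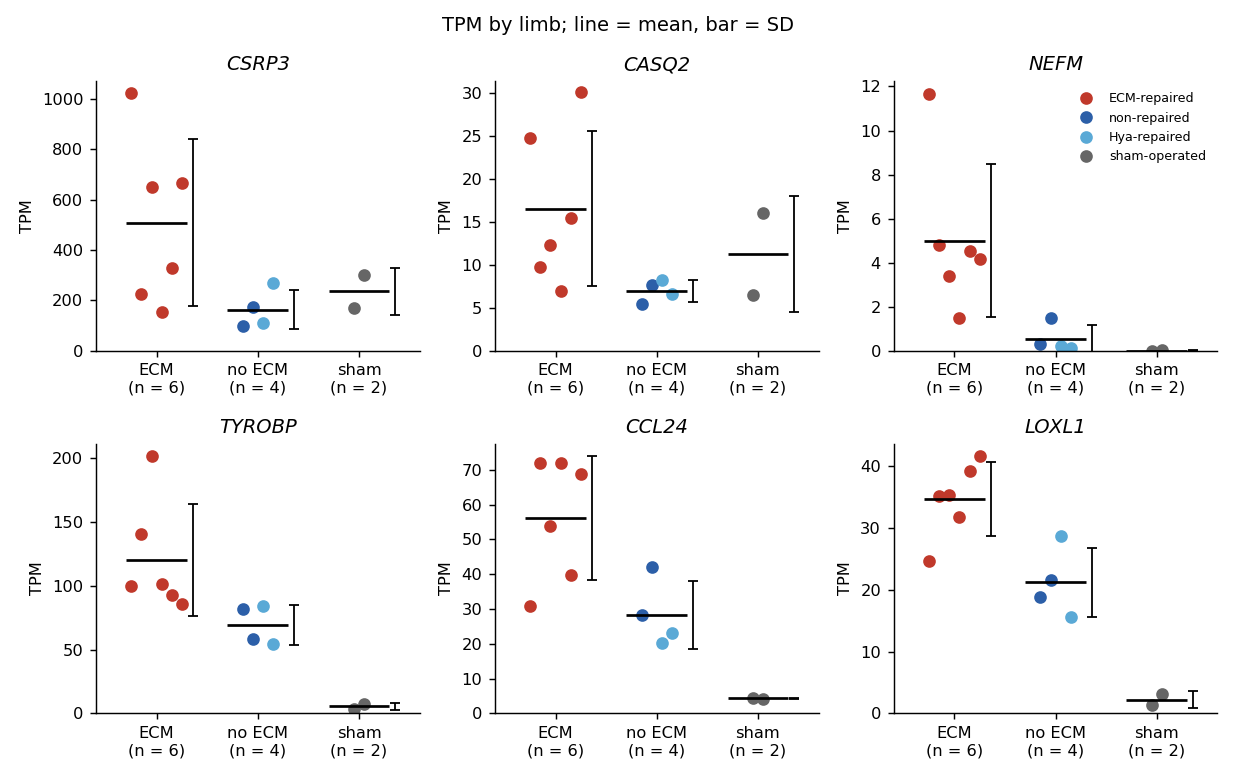
Level of CSRP3, CASQ2, NEFM, TYROBP, CCL24 and LOXL1 (TPM, linear axes from 0) in each limb by side, with non-repaired and Hya-repaired limbs in separate colors, the mean as a line and the SD as a bar that stops at 0. NEFM and TYROBP do not overlap between ECM-repaired limbs and injured limbs without ECM, while in the other 4 genes between 4 and 5 of 6 ECM-repaired limbs lie above all of the others.

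NEFM and NEFL, neurofilament genes of axons, passed the abundance filter on the ECM side alone, where they are high. Their selection favored a difference, so they are given as levels with no test. NEFM, the medium neurofilament chain of axons, was 1.479 TPM in pig 021, 3.375 in pig 018, 4.161 in pig 024, 4.55 in pig 022, 4.786 in pig 014 and 11.66 in pig 013. It was 0.1435 and 0.2167 in the Hya-repaired limbs of pigs 017 and 016 and 0.3144 and 1.477 in the non-repaired limbs of pigs 017 and 023. Pigs 021 and 023 met at the border of the sides, and sham-operated limbs held 0 and 0.0150 TPM. The log2 difference was 2.36, and 2.39 with the ACTA1 term, and at these levels the added 0.5 TPM compresses it. NEFL, the light chain, was 3.794 to 26.36 TPM with ECM (median 13.58) and 0.8761, 3.958, 5.137 and 10.36 without, so the sides overlapped. Over the 7 tested Schwann cell and nerve genes, of 10 measured, the median was 0.37 (margin 0.98), NEFM and NEFL included. Over the 4 of the 7 that passed the filter on both sides it was 0.25.

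Genes of embryonic and denervated muscle had wide intervals. The median of 6 was 0.55 (margin 1.25), and 0.53 (margin 1.28) with the ACTA1 term. ACTC1, the cardiac actin of embryonic fibers, was 10.26 to 478.2 TPM with ECM (median 208.3) and 16.54, 42.2, 59.82 and 97.85 without, at 1.71 (95% CI -0.21 to 3.63). Pig 021 held the lowest value of all injured limbs and the other 5 ECM-repaired limbs held the 5 highest. CHRNA1, the acetylcholine receptor subunit that spreads over denervated fibers, was at 1.30 (95% CI -0.38 to 2.98), with pig 021 again the lowest at 5.697 TPM. The list median was -0.08 against the Hya-repaired limbs and 0.94 against the non-repaired limbs, and that contrast was not tested.

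Vessel and other stromal lists were lower or centered near 0. Of 17 endothelial genes 14 were lower, with a median of -0.32 (margin 0.82), and -0.20 (margin 0.77) with the term, and the median was 0.12 with the term without the Hya-repaired limb of pig 016. VEGFA, the vascular growth factor, was 2.759 to 78.75 TPM with ECM and 19.53, 73.67, 95.16 and 102.7 without, at -1.53 (95% CI -3.59 to 0.53), with a slope of 1.43 ± 0.28 (SE) on ACTA1. Its lowest values came from the ECM-repaired limbs with the least ACTA1, of pigs 014 and 018. Smooth muscle and pericyte genes (12) had a median of -0.27 (margin 0.72), adipocyte genes (14) -0.09 (margin 0.70), and tendon, cartilage and bone genes (9) -0.05 (margin 0.97). Myogenic development genes (16) went from -0.23 (margin 0.83) to -0.08 (margin 0.61) with the ACTA1 term, and 15 of 16 intervals then lay inside a 2-fold change, up from 7. Muscle atrophy genes (15) were at -0.02 and proliferation genes (21) at 0.02, with all 21 proliferation intervals inside a 2-fold change in both fits. Red blood cell genes left 1 tested gene, at -0.96. Skin and epithelium left 2, at a median of 0.18, and the epithelium of small intestine and bladder, the source tissues of the sheets, left 2 of the 17 measured, at 0.02, with 3 of the 17 at 0 in every limb.

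**Figure D5:**
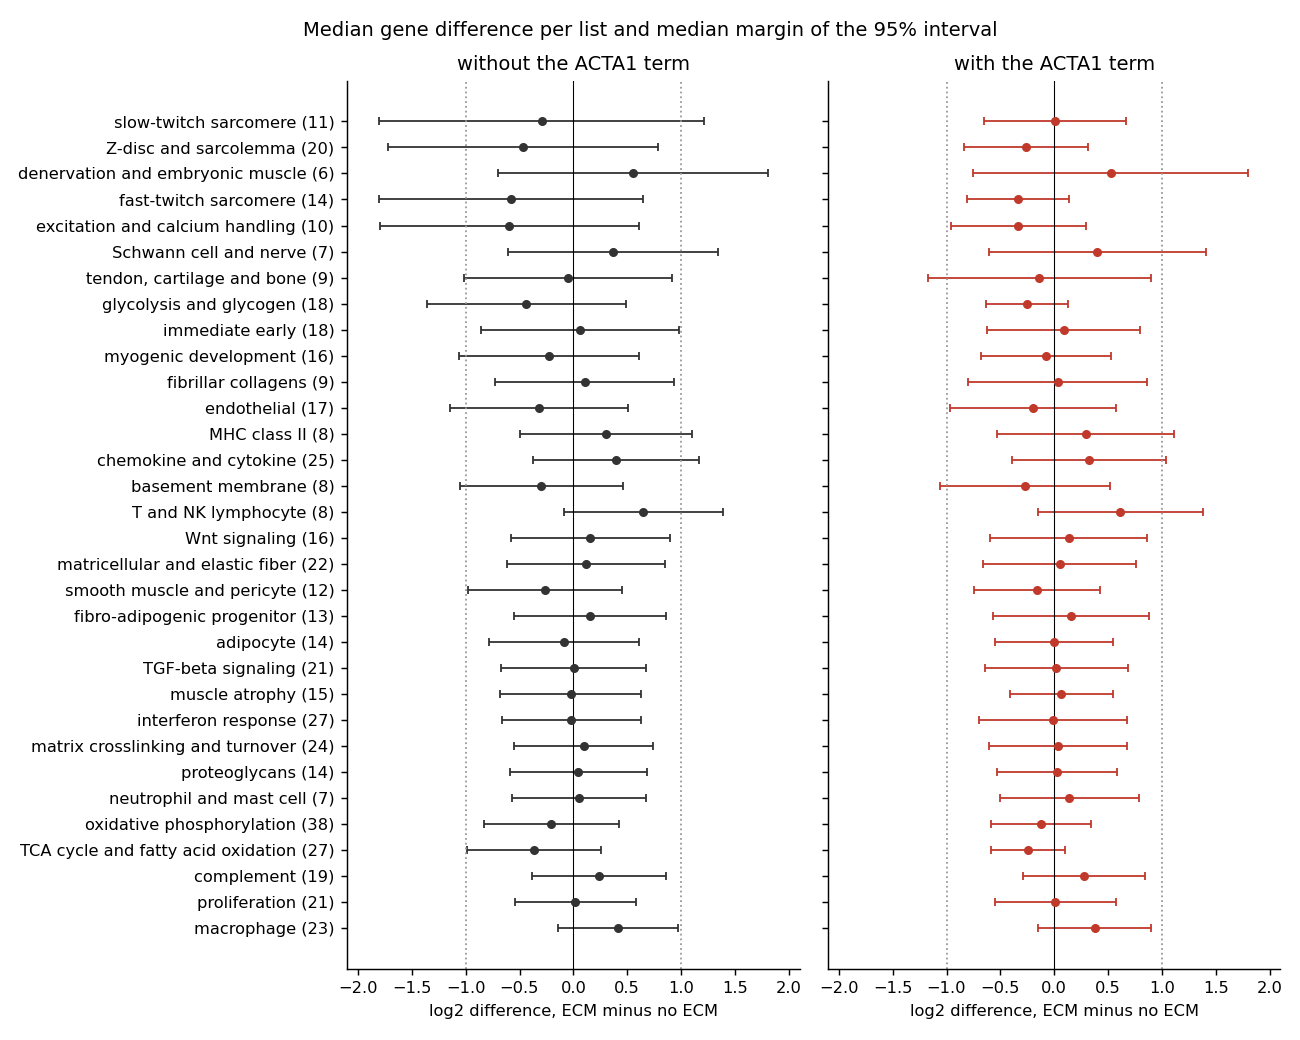
Median log2 difference (ECM-repaired minus injured without ECM) of the genes of each list, with a bar reaching 1 median margin of the 95% interval to each side, without the ACTA1 term on the left and with it on the right, dotted lines marking a 2-fold change and the number of genes in brackets. The bars of sarcomere, calcium and energy lists shorten on the right, and those of matrix, nerve and immune lists barely move.

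Few genes separated the sides limb by limb. The TPM ranges did not overlap for 26 of 8212 genes (0.317%), of which 14 were higher (0.17%) and 12 lower with ECM (0.146%). The following genes were chosen after their values were seen. EMB, the adhesion protein embigin, was 1.749 to 5.262 TPM with ECM and 0.7365 to 1.185 without. SPOCK1, a secreted proteoglycan, was 2.254 to 6.435 TPM with ECM and 0.9095 to 2.111 without. EMB, SPOCK1 and NEFM passed the 1 TPM filter on the ECM side alone, where they are high, so that their selection favored a difference. RAC2, the GTPase of blood cells, was 6.226 to 23.71 TPM with ECM and 3.715 to 5.931 without, at 0.95 (95% CI 0.26 to 1.64). NELFA, of the negative elongation factor that pauses transcription, was lower in all ECM-repaired limbs, at 4.977 to 9.122 TPM compared with 10.83 to 13.89, or -0.69 (95% CI -1.12 to -0.26).

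The genes at or above the median TPM with the largest differences included NR1D1, NR4A1 and ABLIM3. NR1D1, the clock repressor REV-ERB alpha, was 33.72, 50.21 and 104.2 TPM at the lowest, median and highest ECM-repaired limb and 16.29, 18.05, 26.14 and 37.72 without ECM, at 1.16 (95% CI 0.47 to 1.85, unadjusted p = 0.0031 by limma). Sham-operated limbs held 53.4 and 51.68, inside the ECM-repaired range. NR4A1, an orphan receptor rapidly induced by stimulation, was 8.342, 26.26 and 54.41 TPM at the lowest, median and highest ECM-repaired limb and 37.35, 64.21, 64.6 and 72.49 without ECM, at -1.30 (95% CI -2.24 to -0.37). Its relative NR4A3 was 0.2765 to 3.598 TPM with ECM and 1.76 to 6.282 without, and passed the filter through the side without ECM alone, where it is high. Of the 18 tested immediate early genes, which include both, 9 were higher and 9 lower, with a median of 0.06. ABLIM3, an actin-binding LIM protein, was 8.017 to 35.61 TPM with ECM and 15.41, 27.3, 46.44 and 72.78 without, at -1.22 (95% CI -2.20 to -0.24).

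Some large estimates came from values that are hard to interpret as expression. PPIB, a chaperone of the endoplasmic reticulum, was 82.7 to 204.3 TPM in 9 injured limbs and 4.7e-05 in the Hya-repaired limb of pig 016. That limb gave PPIB a log2 difference of 2.39, given with no test because PPIB passed the filter on the ECM side alone. ATOX1, a copper chaperone, was 63.43 to 377.4 TPM in 9 limbs and 0.4959 in the non-repaired limb of pig 023. It too passed the filter on the ECM side alone. The unnamed gene LOC100623913 was 593.1 to 1313 TPM with ECM, 506.6 and 638.7 in pigs 016 and 023 without ECM, and 38.51 and 48.69 in both limbs of pig 017, so its difference of 2.40 (95% CI 0.81 to 3.99) rested on that pig.

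The medians of several lists differed with the kind of limb used as the comparator. Against the 2 non-repaired limbs the macrophage median was 0.11, with 19 of 23 genes higher, and against the 2 Hya-repaired limbs it was 0.61, with 22 of 23 higher. Complement went from 0.11 to 0.56 and endothelial genes from -0.61 to 0.01. For fast-twitch genes the medians were -0.83 and -0.30. T and NK genes were at 0.43 and 0.76. These contrasts share the 6 ECM-repaired limbs, and the difference between them was not tested. With 2 limbs of each kind, the kind cannot be told apart from single limbs. The macrophage list mean was 5.52 and 4.60 in the Hya-repaired limbs of pigs 016 and 017, and 5.52 and 5.40 in the non-repaired limbs. For fast-twitch genes it was 8.95 and 11.17 in the Hya-repaired limbs, and 10.55 and 10.98 in the non-repaired limbs. Among named genes, the difference against non-repaired and against Hya-repaired limbs was 0.73 and 0.76 for TYROBP, 0.75 and 0.68 for LOXL1, 1.66 and 1.25 for CSRP3, -0.68 and -0.76 for COL15A1 and 0.63 and 1.30 for CCL24, so the sign was shared in each.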

How the data were processed

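RNA was sequenced from 12 PT muscle samples, taken 12 weeks after surgery from 11 pigs. Per the study's methods, the authors pseudoaligned reads with Kallisto at default parameters to the UCSC-annotated pig genome, build 9.2, and deposited 1 table of TPM for 11506 gene names; versions are not given in the sources used here. TPM keep no read number, so the depth of each limb cannot be read from the table, no count test was run and the counting error of low values cannot be given. Date-like strings replaced 21 names and were dropped, 239 genes were at 0 in all limbs, and 618 of 1833 LOC names could be matched to a symbol. The values of the table add up to 71.5% to 82.7% of the full TPM scale per limb.

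Deposited TPM were turned into log2(TPM + 0.5), which understates differences of low genes. Genes with at least 1 TPM in all limbs of either side were tested, 8212 in all. Of these, 7762 passed on both sides, 118 on the ECM side alone and 332 on the other side alone. For a gene that passed only on the side where it is high, the filter itself favored a difference. The sides were compared with limma 3.58.1 (R 4.3.3; trend and robust options), without and with centered log2 ACTA1 as a term. P values were adjusted by Benjamini-Hochberg over all genes, with a threshold of 0.05, and 95% intervals came from the moderated standard errors. ACTA1 itself was compared with a two-sided exact permutation test (SciPy 1.17.1). The scripts were tested on simulated data. Tables and plots were made with Python 3.11.15, pandas 2.3.3, NumPy 2.4.6 and Matplotlib 3.10.9.

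The sides and the 36 gene lists were chosen with earlier results of these data known. Named genes are ACTA1, the first 4 of each list, the 3 with the smallest p of each list in either fit, the 8 largest differences in each direction with an unadjusted p under 0.05 in either fit and the 5 steepest slopes in each direction, both among genes at or above the median TPM; any other gene is marked as picked with its values in view. Alternatives were pseudocounts of 0.1 and 1, a minimum of 5 TPM or none, rescaling by TMM (trimming 30% of log ratios and 5% of abundances) or median of ratios, other muscle terms, each kind of limb without ECM alone, pig 017 averaged or left out, the limb letter, plain limma settings and leaving out each limb.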

Additional observations from a re-analysis of the deposited data

Results flagged for a closer look

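In 13 sets of values 1 limb lay far from the others of its side, by a gap that took up more of the side's range than Dixon's 95% limit. Of 196 sets checked, chance alone is set to mark about 1 in 20. Values are log2(TPM + 0.5), or their mean over a list.

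The ECM-repaired limb of pig 018 was high for NKG7 at 4.85, RAC2 at 4.60 and the macrophage list at 6.09. The ECM-repaired limb of pig 021 was low for ACTC1 at 3.43 and the denervation and embryonic muscle list at 3.32, and that of pig 024 was high for the Schwann cell and nerve list at 4.09. On the other side, the Hya-repaired limb of pig 017 was low for PTN at 6.60, the fibro-adipogenic progenitor list at 5.58 and the macrophage list at 4.60. The Hya-repaired limb of pig 016 was low for the adipocyte list at 3.17 and for PPIB at -0.9999, and the non-repaired limb of pig 023 was low for ATOX1 at -0.0060 and stood apart for the immediate early list at 4.83.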

How the results depend on the processing

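No gene passed an adjusted p under 0.05 under any alternative, leave-one-out included (limma). Genes at an unadjusted p under 0.05, 110 without and 184 with the ACTA1 term, numbered 245 and 338 with TMM, 248 and 336 with median of ratios and 201 and 289 without the filter; 64 without the term with pig 017 averaged; and, with the term, 547 without both limbs of pig 017, 62 against non-repaired limbs alone, and 98, 93 and 408 with the fast-twitch mean, the glycolysis mean and DES as the muscle term. Leaving out 1 limb gave 75 to 424 without the term (424 without the Hya-repaired limb of pig 016, 346 without ECM-repaired pig 024) and 88 to 351 with it (88 without Hya-repaired pig 016, 311 without ECM-repaired pig 024, 351 without Hya-repaired pig 017).

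Negative slopes, 121, numbered 79 with plain limma settings, 77 with pig 017 averaged, 80 without it, 70 against Hya-repaired limbs alone, 23 with the limb letter, 78 with the fast-twitch mean and 76 with DES, and 24 to 101 in leave-one-out (24 without ECM-repaired pig 014). Positive slopes, 491, numbered 894 against non-repaired limbs alone and 324 with DES, and 298 to 603 in leave-one-out (298 without ECM-repaired pig 014). Against Hya-repaired limbs alone 52.4% of intervals lay inside a 2-fold change. The neutrophil and mast cell median was -0.43 against non-repaired limbs, 0.53 (0.52 with the term) against Hya-repaired limbs and -0.33 with the term without pig 017.

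Signs of uncalled values turned as follows. ACTA1 ran from -0.92 to 0.075 in leave-one-out. COL3A1 was -0.14 without pig 017 and -0.032 against non-repaired limbs, and with a muscle term -0.096 and -0.087 in these settings, -0.0011 with pig 017 averaged, -0.036 with the fast-twitch mean and -0.046 with the glycolysis mean. COL1A2 was -0.18 (-0.16 with the term) without pig 017. MYH7 was 0.031 without pig 017, and with a term 0.28 against non-repaired limbs, 0.50 with the fast-twitch mean and 0.35 with the glycolysis mean. TNNI2 was 0.13 and 0.089 with those means, and is itself part of the fast-twitch mean. In leave-one-out COL1A2 ran from -0.12 to 0.33 (-0.12 to 0.24 with the term), COL3A1 from -0.18 to 0.29 (-0.17 to 0.15) and MYH7 with the term from -0.42 to 0.26. The cause was not tested. No paired analysis was possible because no pig gave a limb to both sides.

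The side without ECM holds 4 limbs of 3 pigs and mixes non-repaired with Hya-repaired limbs, and SIS and UBM limbs are not separated on the ECM side. The table holds no read numbers, so the depth of each limb cannot be set beside its values.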
